A study of Homo sapiens with 15 samples.

Results

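The interferon-stimulated genes described here are 31 genes that cells switch on in response to interferon, taken from a fixed list of symbols and matched to Ensembl identifiers in tables of RNA sequencing read counts and of CPM, the count scaled to the library's total. All 31 were found among the 60721 identifiers in the tables. Of these, 28 passed a filter on low counts that 17457 genes passed, and these 28 were tested. The 3 that did not pass were CXCL10, which encodes a T-cell-attracting chemokine, XAF1, which encodes a pro-apoptotic partner of an apoptosis inhibitor, and RSAD2, which encodes the antiviral radical-SAM enzyme viperin.

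Interferons are secreted cytokines that bind receptors on the cell surface and activate JAK kinases, which phosphorylate STAT proteins. With IRF9 these form a complex that binds interferon-stimulated response elements in promoters and raises the transcription of antiviral genes. In epithelial cells many of these genes also keep a basal level without added interferon, through unphosphorylated STAT proteins and factors of the IRF family.

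The cells were MCF-10A, a non-tumorigenic human mammary epithelial line, sequenced as poly(A) RNA in 15 libraries of 5 genotypes with 3 libraries each. The genotypes were parental cells, cells carrying an empty vector, and cells in which NF1 was edited with guide RNA 1, with guide RNA 2 or with both guides. NF1 encodes neurofibromin, which limits RAS signalling. All 5 genotypes were untreated, so no interferon was added, and all were grown with horse serum, EGF, hydrocortisone, cholera toxin and insulin. Whether each edited line is a clone or a pool, and how the guides were delivered, is not given in the sources used here. The labels call the libraries of a genotype biological replicates without saying whether they came from separate cultures, so p-values measure only the spread between these libraries, which may be technical.

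Library totals ranged from 46129559 to 78976917 counts, and 3 counts, taken as the smallest detectable level, corresponded to 0.038 to 0.065 CPM. NF1 itself had 141 to 159 CPM in the parental libraries and 115 to 133 CPM in the empty-vector libraries. It had 43.6 to 51.3 CPM with guide 1, 27.0 to 31.4 CPM with guide 2 and 26.0 to 29.4 CPM with both guides, so that every edited library lay below every unedited library. One library stood apart: guide 2 replicate 2 lay at 91.9 on the first principal component, against -45.96 and -47.80 for the other guide 2 libraries. The basal keratin gene KRT5 was present in every library, at 625 to 4997 CPM, whereas the epithelial cadherin gene CDH1 ranged from 0.019 to 127 CPM and the basal factor gene TP63 from 0.054 to 75.8 CPM, so these defining markers were near 0 in some libraries. In bulk RNA, fewer cells of a type and less RNA per cell cannot be told apart.

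To show what the members share in their sequence, promoters from RefSeq (GRCh38.p14) were searched for the core of the interferon-stimulated response element, GAAA repeated in the same direction after any 2 bases, on both strands in the 250 bases before each start site. Of the 31 members, 27 had a promoter in that table, and 17 of these (63.0%) held the core, compared with 3.71% of 27305 genes and 3.02% of all 35116 windows. The gamma-activated site TTCNNNGAA was held by 9 of the 27 members (33.3%) and by 8.09% of genes, and the 2 motifs overlapped in 20 windows, 5 of which belonged to members. The members without an entry were OASL, OAS2, IFIT2 and IRF7. Stretches without annotated exons are printed for 3 of the members lowest in guide 2 replicate 2 (IFI44L, IFI44 and IFI6) and for 2 members that were not low there (IFIH1 and OAS3). Capitals mark the core or its reverse complement.
IFI44L, chr1:78620198-78620381, plus strand: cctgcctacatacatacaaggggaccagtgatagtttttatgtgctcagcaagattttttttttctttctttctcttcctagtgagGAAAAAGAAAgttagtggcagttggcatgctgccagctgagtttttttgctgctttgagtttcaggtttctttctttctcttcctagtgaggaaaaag
IFI44, chr1:78649539-78649788, plus strand: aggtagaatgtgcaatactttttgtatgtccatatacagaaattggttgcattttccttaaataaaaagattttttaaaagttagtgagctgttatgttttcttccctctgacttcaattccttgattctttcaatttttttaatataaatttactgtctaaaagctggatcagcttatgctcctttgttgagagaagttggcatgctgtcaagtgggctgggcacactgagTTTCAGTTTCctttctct
IFI6, chr1:27672219-27672442, minus strand: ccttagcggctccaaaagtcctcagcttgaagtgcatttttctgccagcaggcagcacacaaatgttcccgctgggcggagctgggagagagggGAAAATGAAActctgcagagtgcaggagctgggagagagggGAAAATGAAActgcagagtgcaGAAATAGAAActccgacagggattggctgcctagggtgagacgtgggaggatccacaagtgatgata
IFIH1, chr2:162318704-162318839, minus strand: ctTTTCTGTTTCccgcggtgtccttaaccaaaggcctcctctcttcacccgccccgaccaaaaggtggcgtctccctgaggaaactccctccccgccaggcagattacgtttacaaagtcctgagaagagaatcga
OAS3, chr12:112938224-112938351, plus strand: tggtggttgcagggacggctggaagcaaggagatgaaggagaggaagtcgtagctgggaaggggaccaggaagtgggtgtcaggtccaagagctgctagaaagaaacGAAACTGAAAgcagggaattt
The printed stretch of IFI6 held 3 cores and the other 4 held 1 each. In the whole windows of 250 bases there were 3 cores for IFI6, 3 for IFIH1, 2 for OAS3, 2 for IFI44L and 1 for IFI44. Stretches were printed only from windows with a core, so these 5 cannot show whether the 2 kinds of member differ in it. No core was found for DTX3L, SAMD9L, STAT2 and IFI35, which were below all other libraries in guide 2 replicate 2. None was found either for IRF1, IRF9, HERC6, CMPK2 and OAS1, which lay inside the range of the others there. The cores are matches of letters, and no binding was measured.

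The members lay at low to moderate levels. Per kilobase of exon, the highest was BST2, which encodes tetherin, a protein that holds budding virions at the cell surface, at a mean of 29.7 CPM per kilobase over the 15 libraries. Next came DTX3L at 9.97, SAMD9 at 9.85 and STAT2 at 7.01 CPM per kilobase. The 3 genes that did not pass the filter were scarce. RSAD2 had counts in 12 of 15 libraries, at most 8, which is 0.143 CPM, above the floor of 3 counts. CXCL10 had a count in 4 of 15 libraries, with at most 4 counts, in empty-vector replicate 3. XAF1 had 1 count in 1 library, and a count of 0 in a library allows up to 3 counts.

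A score was computed for each library as the mean log2 CPM over the 28 members tested. It was 2.01, 2.41 and 2.29 in the parental libraries and 2.28, 2.25 and 2.33 in the empty-vector libraries. It was 2.50, 2.54 and 2.36 with guide 1, 2.41, 1.39 and 2.51 with guide 2, and 2.31, 2.37 and 2.39 with both guides. Every guide 1 library lay above every empty-vector library by this score, while the 3 guide 2 libraries lay on both sides of them. Guide 2 replicate 2 was the lowest of all 15, and the next lowest was parental replicate 1.

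**Figure D1:**
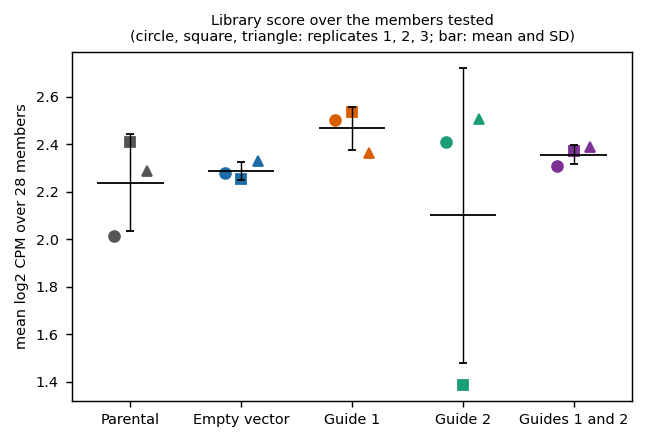
Mean log2 CPM over the 28 members tested (y axis) for each library, by genotype (x axis); points are libraries, bars the mean and SD of 3. Guide 2 replicate 2 lies at 1.39, below the other 14 libraries, which lie between 2.01 and 2.54.

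Against the empty vector, few members passed the test (edgeR quasi-likelihood, adjusted p under 0.05 over 17457 genes). With guide 1, 2 of 28 members fell and none rose, IFIH1 and DTX3L, where 5.88% of all genes were called and 4.57% were called lower. With guide 2, 1 member fell, DTX3L, where 3.94% of all genes were called and 2.73% were called lower. Among 28 genes, shares of this size come to about 1 or 2, so these counts are near the background. With both guides 1 member rose, CMPK2, where 0.962% of all genes were called and 0.269% were called higher. The median log2 difference over the 28 members was 0.05 with guide 1, -0.08 with guide 2 and -0.09 with both guides, beside 0.02, 0.03 and -0.00 over all genes tested. In the parental cells against the empty vector no member passed with edgeR, where 4.37% of all genes were called, although 2 had an unadjusted p under 0.05. DESeq2 called 2 in that comparison, DTX3L and PARP9, both lower, with 8.56% of all genes, and voom with sample quality weights called 6 with 36.3%.

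**Figure D2:**
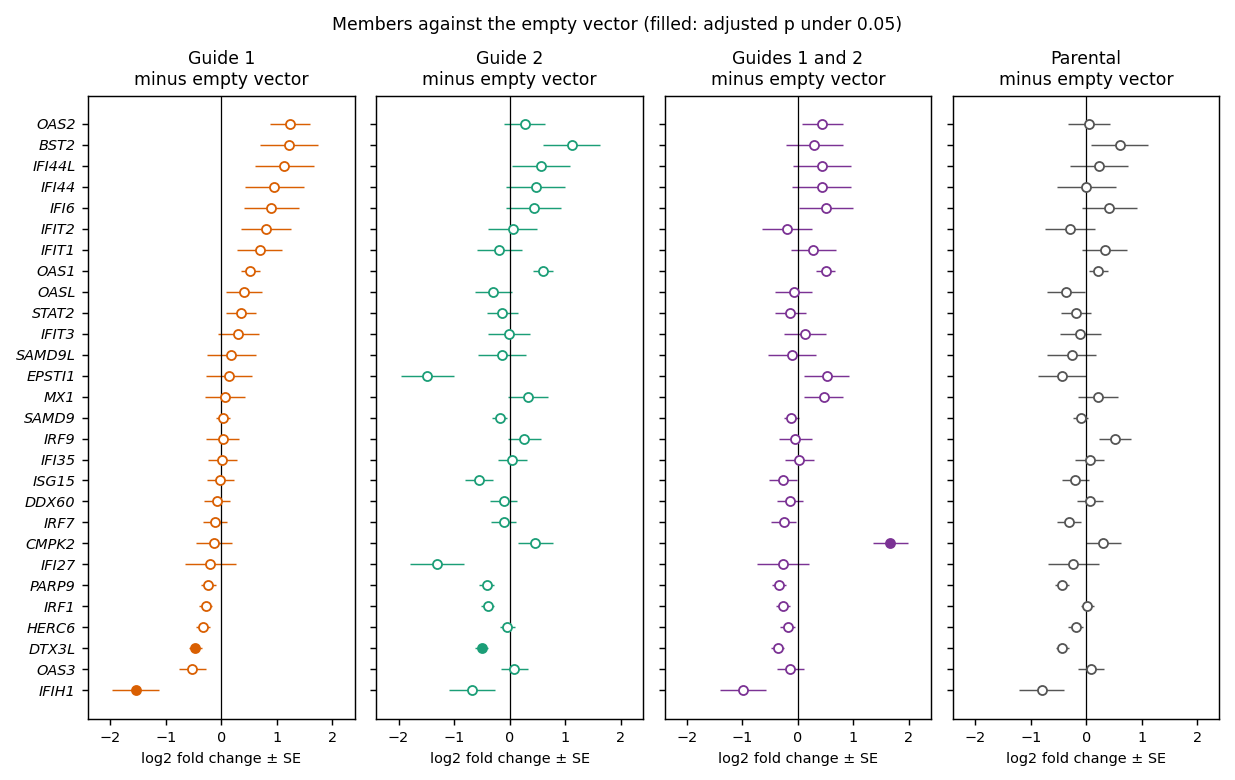
Log2 fold change with its standard error (x axis) of each of the 28 members tested (y axis) in 4 comparisons with the empty vector; filled points passed at an adjusted p under 0.05. IFIH1 and DTX3L are filled with guide 1, DTX3L with guide 2, CMPK2 with both guides, and no member in the parental cells.

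More members separated the groups without overlap than passed the test. With guide 1, 13 of 28 members had no overlap with the empty vector in CPM, where 36.2% of all genes had none. With guide 2 the count was 7, where the share of all genes was 23.1%. With both guides it was 13, where it was 37.7%, and in the parental cells it was 4, where it was 32.1%. These counts cover both directions.

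**Figure D3:**
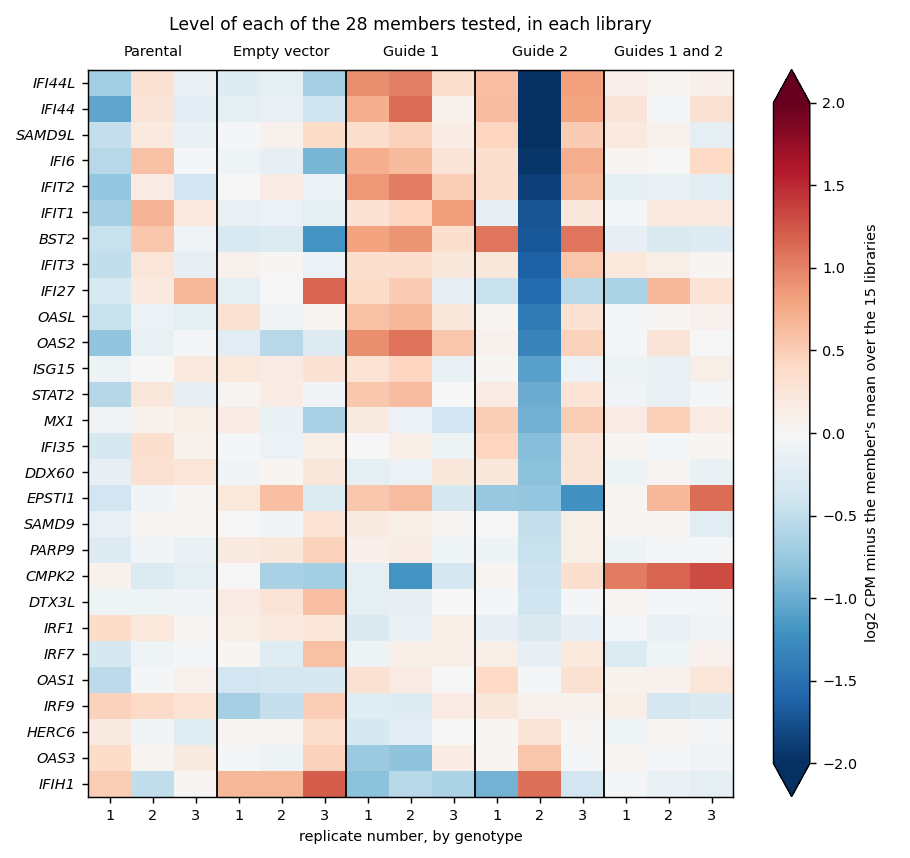
Log2 CPM of each of the 28 members tested (rows) minus its mean over the 15 libraries, by library (columns, grouped by genotype); red is higher, blue lower, and the scale ends at 2 in either direction. The column of guide 2 replicate 2 is blue for most members and red for IFIH1 and OAS3.

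The members that encode transcription factors of the pathway were STAT2, IRF9, IRF7 and IRF1. STAT2 is part of the complex described above. It had 28.1, 49.2 and 37.5 CPM in the parental libraries, 43.0, 45.9 and 38.9 CPM with the empty vector and 59.9, 62.7 and 41.6 CPM with guide 1. It had 45.98, 21.0 and 50.1 CPM with guide 2 and 40.0, 37.5 and 40.6 CPM with both guides. The guide 1 libraries overlapped the empty-vector libraries, with a log2 difference of 0.35 (SE 0.276, edgeR adjusted p 0.497), and guide 2 replicate 2 was the lowest library. IRF9, the DNA-binding partner of the STATs, was below 1 CPM throughout: 0.807, 0.768 and 0.714 CPM in the parental, 0.350, 0.406 and 0.802 CPM in the empty-vector and 0.479, 0.468 and 0.649 CPM in the guide 1 libraries. It had 0.668, 0.616 and 0.607 CPM with guide 2 and 0.629, 0.446 and 0.465 CPM with both guides, all 6 below the parental libraries and inside the range of the empty vector.

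IRF1, an activator that also acts downstream of interferon gamma, had 15.1, 13.7 and 12.2 CPM in the parental libraries and 12.8, 13.3 and 13.5 CPM with the empty vector. It had 9.53, 10.4 and 12.9 CPM with guide 1, 10.3, 9.64 and 10.4 CPM with guide 2, and 11.6, 10.6 and 11.1 CPM with both guides. Except for guide 1 replicate 3, every edited library was below every unedited one. Over the mean of the 3 edited genotypes against the mean of the 2 unedited ones the log2 difference was -0.33 (SE 0.076, edgeR adjusted p 0.0539), the smallest adjusted p of any member in that comparison, which did not pass. IRF7, which drives the transcription of interferon genes, had 1.09, 1.30 and 1.36 CPM in the parental and 1.40, 1.14 and 2.00 CPM in the empty-vector libraries. It had 1.26, 1.46 and 1.503 CPM with guide 1, 1.46, 1.21 and 1.58 CPM with guide 2, and 1.13, 1.28 and 1.45 CPM with both guides, and all groups overlapped.

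IFIH1 encodes a cytoplasmic sensor of double-stranded RNA. It had 7.83, 7.80 and 11.2 CPM with the empty vector and 2.78, 3.32 and 3.18 CPM with guide 1, a fall of log2 -1.54 (SE 0.419; adjusted p by edgeR, 0.0486). It had 7.02, 3.56 and 5.13 CPM in the parental libraries, 2.53, 10.7 and 3.76 CPM with guide 2, and 4.92, 4.53 and 4.31 CPM with both guides. The empty-vector libraries were above all others except guide 2 replicate 2, which was at 342% of the mean of the other guide 2 libraries. Parental cells were also below the empty vector without overlap, with a log2 difference of -0.81 (adjusted p 0.304), and guide 1 against the parental cells gave -0.74 (adjusted p 0.314). The call for guide 1 was lost, at adjusted p up to 0.194, when any 1 of 11 libraries was left out. It held without parental replicate 2 or any 1 of the guide 2 libraries, and was lost without any other library. The other member for an RNA helicase, DDX60, ranged from 6.78 CPM in guide 2 replicate 2 to 14.9 CPM in parental replicate 2, and passed no comparison with edgeR or DESeq2, though voom with sample quality weights called it in 4.

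The oligoadenylate synthetases OAS1, OAS2 and OAS3 make the second messenger that activates RNase L, and they lie side by side on chromosome 12 with gaps of 5129 and 5145 bases. None of the 3 passed against the empty vector with edgeR. OAS2 had 1.05, 0.830 and 1.01 CPM with the empty vector and 2.39, 2.65 and 1.82 CPM with guide 1, so the groups did not overlap, with a log2 difference of 1.24 (SE 0.367, edgeR adjusted p 0.067). OAS3 had 45.8, 43.7 and 63.0 CPM with the empty vector and 28.3, 26.7 and 52.5 CPM with guide 1, an overlapping difference of -0.52 (SE 0.241, adjusted p 0.234). In guide 2 replicate 2, OAS2 was at 0.471 CPM, the lowest of all libraries, and OAS3 at 70.3 CPM, the highest. OAS1 had 4.002, 3.56 and 3.23 CPM with guide 1 and 4.23, 3.15 and 3.99 CPM with guide 2, against 2.45, 2.51 and 2.50 CPM with the empty vector. Its log2 differences of 0.52 and 0.60 had adjusted p of 0.105 and 0.0817. OASL, a relative without the synthetase activity, ranged from 0.308 to 1.38 CPM. OAS2 and OAS3 were chosen for this account after their values were seen. The parental and both-guide values of OAS1, OAS2 and OAS3 are not given here.

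IFI44L and IFI44 are neighbours on chromosome 1, separated by 3650 bases. IFI44L, a feedback regulator of the interferon response, had 33.0, 67.1 and 49.2 CPM in the parental libraries, 44.7, 47.0 and 32.8 CPM with the empty vector and 102, 106 and 66.8 CPM with guide 1. It had 79.8, 10.8 and 94.5 CPM with guide 2 and 57.6, 55.6 and 57.3 CPM with both guides. The guide 1 libraries, the both-guide libraries, 2 of the 3 guide 2 libraries and 2 of the 3 parental libraries were above every empty-vector library. The mean with guide 1 was 91.4 ± 21.4 CPM (SD, n = 3) against 41.5 ± 7.67 CPM with the empty vector, a log2 difference of 1.13 (SE 0.532) that did not pass (edgeR adjusted p 0.241). IFI44 also separated guide 1 from the empty vector, with 11.5, 14.9 and 7.41 CPM with guide 1, 6.07, 6.20 and 5.07 CPM with the empty vector and 10.5, 1.61 and 11.997 CPM with guide 2. Its log2 difference with guide 1 was 0.96 (SE 0.533, adjusted p 0.326). IFI6, which encodes a small antiviral membrane protein, ranged from 1.14 CPM in guide 2 replicate 2 to 7.36 CPM in guide 2 replicate 3. IFI35 ranged from 2.7005 to 6.50 CPM and IFI27 from 0.145 to 1.10 CPM, both lowest in guide 2 replicate 2. IFI44 was chosen for this account after its values were seen, and its parental and both-guide values are not given here.

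**Figure D4:**
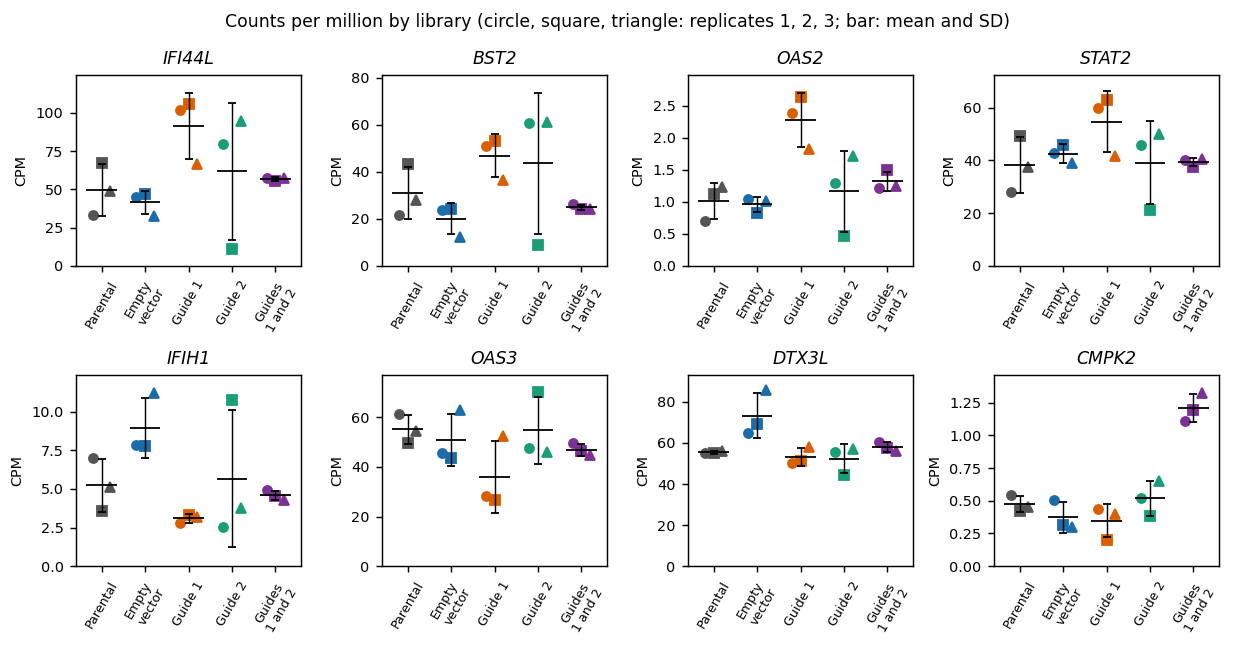
CPM (y axis, from 0) of 8 members in each library, by genotype (x axis), with the mean and SD of 3 libraries. IFI44L, BST2, OAS2 and STAT2 are lowest in guide 2 replicate 2, IFIH1 and OAS3 are not, DTX3L is highest with the empty vector, and CMPK2 is highest with both guides.

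The IFIT proteins bind foreign RNA and block its translation, and IFIT2, IFIT3 and IFIT1 lie next to each other on chromosome 10. IFIT2 ranged from 0.652 to 4.93 CPM, IFIT3 from 3.97 to 18.1 CPM and IFIT1 from 0.634 to 3.88 CPM, and each had its lowest value in guide 2 replicate 2. All 3 had no overlap between guide 1 and the empty vector, with log2 differences of 0.80, 0.31 and 0.69, none of which passed. BST2 had 23.7, 24.0 and 12.4 CPM with the empty vector, 50.9, 53.2 and 36.3 CPM with guide 1, and 26.2, 24.0 and 24.3 CPM with both guides. With guide 2 it had 60.6, 9.04 and 61.1 CPM, so that this group held both the highest and the lowest libraries of the 15, while the parental libraries had 21.6, 43.1 and 28.2 CPM. The log2 difference of BST2 with guide 1 was 1.22 (SE 0.517, edgeR adjusted p 0.191). BST2 was chosen for this account after its values were seen. MX1, which encodes a dynamin-like antiviral GTPase, stayed between 0.290 and 0.838 CPM.

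CMPK2 encodes a mitochondrial nucleotide kinase and RSAD2 lies beside it on chromosome 2. CMPK2 had 1.11, 1.19 and 1.32 CPM with both guides, from 51, 67 and 74 counts. It had 0.508, 0.313 and 0.298 CPM with the empty vector, 0.544, 0.423 and 0.455 CPM in the parental libraries, 0.440, 0.203 and 0.396 CPM with guide 1, and 0.524, 0.381 and 0.650 CPM with guide 2. The 3 both-guide libraries were above all 12 others. CMPK2 rose to 324% of the empty-vector mean, a log2 difference of 1.67 (SE 0.310; adjusted p by edgeR, 0.0272). Against guide 1 the rise was 1.81 (SE 0.311, adjusted p 0.0384), where 0.275% of all genes were called and 0.189% were called higher. Against the parental cells the log2 difference was 1.36 (adjusted p 0.0985) and against guide 2 it was 1.20 (adjusted p 0.230). RSAD2 had 4, 8 and 7 counts with both guides, 0, 1 and 1 with the empty vector, 1, 1 and 1 with guide 1, 0, 3 and 3 with guide 2, and 0, 4 and 1 in the parental libraries. The annotations of CMPK2 and RSAD2 share 830 bases on opposite strands, and the use of strand in counting is not given in the sources used here, so reads of both genes may not be separable there.

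The call of CMPK2 against the empty vector was lost without any 1 of empty-vector replicates 2 and 3 and the 3 both-guide libraries, at log2 differences of 1.53 to 1.72 and adjusted p of 0.104 to 0.149. Against guide 1 it was lost, at log2 differences of 1.52 to 2.01 and adjusted p of 0.0511 to 0.201, without any 1 of 9 libraries. These were parental replicates 2 and 3, empty-vector replicate 2, guide 1 replicates 1 and 2, guide 2 replicate 1 and the 3 both-guide libraries. Without guide 2 replicate 2 it held in both comparisons, and CMPK2 also passed against the parental cells (log2 difference 1.36, adjusted p 0.0233). CMPK2 was the member that DESeq2 called for both guides against the empty vector and against guide 1, where it called 3.74% and 1.88% of all genes.

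PARP9 and DTX3L encode an ADP-ribosyltransferase and its ubiquitin ligase partner, whose annotations share 340 bases on opposite strands of chromosome 3. DTX3L had 64.9, 69.2 and 85.8 CPM with the empty vector, above all 12 other libraries. It had 54.9, 55.3 and 56.3 CPM in the parental libraries, 50.4, 51.2 and 58.2 CPM with guide 1, 55.8, 44.2 and 57.0 CPM with guide 2, and 60.5, 57.4 and 56.0 CPM with both guides. The fall with guide 1 was log2 -0.47 (SE 0.118; adjusted p by edgeR, 0.0355) and with guide 2 it was -0.50 (SE 0.118, adjusted p 0.0336). The parental cells were lower than the empty vector too, by a log2 difference of -0.43 (adjusted p 0.0564), and against the parental cells the differences were -0.04 with guide 1 and -0.07 with guide 2 (adjusted p 0.867 and 0.975). Both comparisons with the empty vector share its 3 libraries. PARP9 followed with 24.9, 25.5 and 29.4 CPM in the empty-vector libraries and 16.3 to 24.0 CPM in the other 12, and did not pass.

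The DTX3L call with guide 1 was lost without empty-vector replicate 2 or 3, guide 1 replicate 1 or 2, or both-guide replicate 1 or 2, at log2 differences of -0.34 to -0.54 and adjusted p up to 0.160. With guide 2 it was lost without empty-vector replicate 2 or 3, guide 2 replicate 1 or 3, or both-guide replicate 1 or 2, at -0.37 to -0.58 and adjusted p up to 0.143. When only the 6 guide 2 and empty-vector libraries were fitted, DTX3L had an adjusted p of 0.252.

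The remaining members varied less or were scarce. ISG15, the ubiquitin-like modifier that gives the pathway one of its names, had 2.00, 2.15 and 2.49 CPM in the parental and 2.47, 2.397 and 2.56 CPM in the empty-vector libraries. It had 2.58, 2.85 and 1.93 CPM with guide 1, 2.13, 0.997 and 1.97 CPM with guide 2, and 1.99, 1.94 and 2.32 CPM with both guides. All libraries of guide 2 and of both guides were below the empty-vector libraries, with log2 differences of -0.55 and -0.27 that did not pass (edgeR adjusted p 0.257 and 0.726). HERC6, a ligase of the HECT family, ranged from 7.85 to 12.1 CPM.

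SAMD9 and SAMD9L are neighbours on chromosome 7 that encode restrictors of translation and growth. SAMD9, the member with the highest mean CPM, had 61.1, 69.7 and 70.4 CPM in the parental libraries, 67.2, 64.6 and 78.7 CPM with the empty vector and 76.3, 71.9 and 68.5 CPM with guide 1. It had 66.3, 49.3 and 72.5 CPM with guide 2 and 69.8, 68.7 and 58.0 CPM with both guides. Its groups overlapped, and 49.3 CPM in guide 2 replicate 2 was the lowest value. SAMD9L was scarcer, at 1.16 to 6.76 CPM, and also lowest there. EPSTI1, named for its induction in epithelial cells next to stroma, had 3 to 20 counts in a library and 0.043 to 0.358 CPM. The 3 guide 2 libraries of EPSTI1 had 0.0723, 0.0725 and 0.0434 CPM, below the other 12, and the log2 difference from the empty vector was -1.49 (SE 0.478, adjusted p 0.107).

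Between the other groups, CMPK2 against guide 1 was the only call. No member passed with edgeR for guide 1, guide 2 or both guides against the parental cells, where 0.149%, 0.0516% and 0.195% of all genes were called. In that order, 5, 2 and 3 members had an unadjusted p under 0.05. DESeq2 called 1 (OAS2), 0 and 1 (CMPK2), with 3.59%, 0.632% and 1.77% of all genes, and voom with sample quality weights called 16, 12 and 2, with 52.9%, 32.5% and 21.3%. No member passed between guides 1 and 2, where 0.0401% of all genes were called, with 5 members at an unadjusted p under 0.05, 0 by DESeq2 (0.974% of all genes) and 7 by voom (20.2%). None passed for both guides against guide 2, where 0.149% of all genes were called, with 2 members at an unadjusted p under 0.05, CMPK2 alone by DESeq2 (0.759% of all genes) and 6 by voom (15.2%). For the mean of the 3 edited genotypes against the mean of the 2 unedited ones none passed, where 1.51% of all genes were called. There, 6 members had an unadjusted p under 0.05. DESeq2 called 2, OAS1 higher and IRF1 lower, with 4.43% of all genes, and voom called 16 with 42.0%. The 9 edited and 6 unedited libraries overlapped in all 28 members, where 0.281% of all genes did not overlap.

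Other fits gave other counts against the empty vector. With guide 1, DESeq2 called OAS2 higher and DTX3L and IFIH1 lower, with 9.47% of all genes. A fit of the 6 guide 1 and empty-vector libraries alone called 10 members, with 15.8% of all genes: BST2, IFI44, IFI44L, IFI6, IFIT1, IFIT2, OAS1 and OAS2 higher, and DTX3L and IFIH1 lower. Voom with sample quality weights called 15 members with 42.5% of all genes. With guide 2, DESeq2 called OAS1 higher and DTX3L, IRF1 and PARP9 lower, with 6.7% of all genes, voom called 13 members with 33.2%, and the fit of the compared libraries alone called 0 with 0.0794%. With both guides, the fit of the compared libraries alone called 8 members with 18.7% of all genes, CMPK2, IFI44, IFI44L and OAS1 higher and DTX3L, IFIH1, IRF1 and PARP9 lower, and voom called 6 with 26.7%. For both guides against guide 1 it called 6 with 7.67% of all genes, CMPK2 and IFIH1 higher and BST2, IFI44L, IFIT2 and OAS2 lower, and voom called 16 with 46.5%. For both guides against the parental cells it called CMPK2, with 0.904% of all genes.

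In guide 2 replicate 2, 19 of the 28 members were below every one of the other 14 libraries, where 25.5% of all genes tested were. Only OAS3 was above every other library, where 26.1% of all genes were, and 8 members lay inside the range of the others. Relative to the mean of guide 2 replicates 1 and 3, IFI44L was at 12.4%, IFI44 at 14.4%, BST2 at 14.9%, IFI6 at 17.7%, SAMD9L at 17.8% and IFIT2 at 18.7%. STAT2 was at 43.8% and ISG15 at 48.7%, whereas IRF9 was at 96.6%, IRF1 at 93.1%, OAS3 at 150% and IFIH1 at 342%. EPSTI1 and HERC6 were also above the mean of the sister libraries, at 125% and 118%. The members thus ranged from far below that mean to above it. NF1 was at 31.4 CPM in that library, within the low range of the edited cells.

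Leaving out guide 2 replicate 2 changed the counts. For guide 1 against the empty vector 9 members then passed, where 18.1% of all genes did. IFI44L (log2 difference 1.12, SE 0.226, edgeR adjusted p 0.00416), BST2 (1.21, SE 0.256, 0.00563), OAS2 (1.23, SE 0.231, 0.00274), IFI44, IFI6, IFIT2 and OAS1 were higher, and IFIH1 and DTX3L were lower. For guide 2, with 2 libraries left, 5 members passed where 14.5% of all genes did: BST2, IFI44L and OAS1 higher, and IFIH1 and DTX3L lower. For both guides 4 passed, where 6.70% of all genes did: CMPK2 higher, and IFIH1, DTX3L and PARP9 lower. IFIH1, DTX3L and PARP9 were also lower in the parental cells than with the empty vector, where 13.9% of all genes passed.

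In the fit without that library, guide 1 against the parental cells gave 5 members, all higher (IFI44, IFI44L, IFIT2, OAS2 and OASL), where 14.5% of all genes passed. Both guides against guide 1 gave CMPK2 higher and IFIT2 lower, where 4.55% of all genes passed, and both guides against guide 2 gave BST2 lower, where 1.83% did. CMPK2 was the member that passed for both guides against the parental cells, where 2.62% of all genes did. Guide 2 against the parental cells and guide 1 against guide 2 gave 0 members with edgeR, where 5.96% and 0.162% of all genes passed. The mean of the edited against the mean of the unedited genotypes gave 10, where 18.0% of all genes passed: IFIT2, IFIT3, OAS1, OAS2, IFI44, IFI44L and BST2 higher, and IRF1, IFIH1 and DTX3L lower. Against the mean of the unedited genotypes, IFI44L had a log2 difference of 0.75 (SE 0.151, edgeR adjusted p 0.00460) and IFIH1 of -0.95 (SE 0.152, adjusted p 0.00117).

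The level of basal epithelial markers varied between libraries, and the libraries with the most of it had low levels of most members in 2 of the 5 genotypes. The summed CPM of 7 basal markers (KRT5, KRT14, KRT17, TP63, ITGB4, LAMB3 and CDH3) ran from 1701 in guide 1 replicate 3 to 9247 in guide 2 replicate 2. By genotype, its lowest and highest values were 1982 and 5375 in the parental, 4684 and 6825 in the empty-vector, 1701 and 2750 in the guide 1, 2028 and 9247 in the guide 2, and 2602 and 2833 in the both-guide libraries. Abundant genes weigh most in this sum: KRT5 averaged 1582 CPM, LAMB3 877 and TP63 21.1. The mean log2 CPM of the 7 markers was 6.30 to 8.53 in the parental and 8.46 to 9.23 in the empty-vector libraries. It was 5.19 to 5.79 with guide 1, 5.49, 9.30 and 5.52 with guide 2, and 7.07 to 7.33 with both guides. With guide 1, 3 of the 7 markers fell against the empty vector (edgeR), where 4.57% of all genes were called lower. With guide 2, 1 of the 7 fell, where 2.73% were called lower. Within the parental cells, replicate 1 had the highest sum of these markers and the lowest level of 22 of the 28 members, whereas replicate 2 had the lowest sum and the highest level of 13 members. Within guide 2, replicate 2 had the highest sum and the lowest level of 23 members. The order differed in guide 1, where replicate 2 had the highest sum and the highest level of 15 members, and in the empty vector, where replicate 3 had the highest sum, the lowest level of 11 members and the highest of 14. With both guides, replicate 1 had the highest sum, the lowest level of 10 members and the highest of 11. Their part in the results was not tested.

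**Figure D5:**
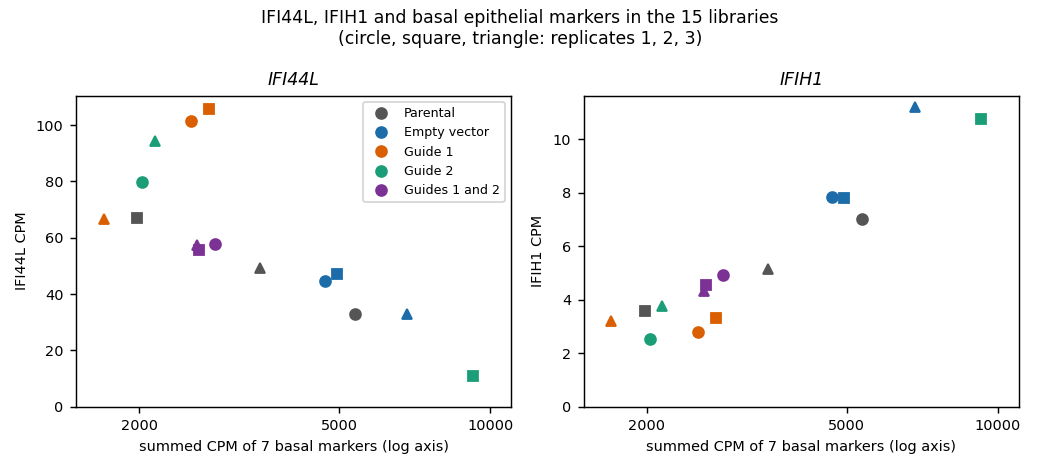
CPM of IFI44L (left) and IFIH1 (right) on the y axes against the summed CPM of 7 basal markers (x axis, log scale) in the 15 libraries, coloured by genotype. Guide 2 replicate 2, at 9247 on the x axis, has the lowest IFI44L (10.8 CPM) and an IFIH1 level of 10.7 CPM, near the highest (11.2 CPM).

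Markers of other cells were scarce or varied. Of 6 fibroblast markers, DCN and LUM rose and COL1A1 fell with guide 1 against the empty vector, and of 4 general epithelial markers CDH1 and KRT18 fell. In that comparison 5.88% of all genes were called. Among leukocyte markers, CD3E and CLEC4C had no count in any library and PTPRC had at most 0.054 CPM, while CD14 had 3.24 to 6.95 CPM. The summed level of PTPRC, CD3E, CD14, CLEC4C and NCAM1 was 3.57 to 3.95 CPM in the parental, 4.72 to 7.14 in the empty-vector, 3.80 to 6.18 in the guide 1, 3.97 to 5.69 in the guide 2 and 6.29 to 6.68 in the both-guide libraries. Of 3 endothelial markers, CDH5 had at most 0.019 CPM and VWF at most 0.163 CPM, while PECAM1 had a count in all 15 libraries, at 0.585 to 1.99 CPM. The summed level of 10 proliferation genes was 1809 to 3409 CPM with guide 1 and 1891 to 2346 CPM with the empty vector, against 2959 to 3538 CPM in the 9 libraries of the other genotypes. Among the guide 1 libraries it was highest in replicate 3, which also had the lowest level of 18 of the 28 members. Its part in the results was not tested.

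The rest of the pathway was given by lists of genes that are not members. Of 10 interferon genes, 7 had no count in any library: IFNA1, IFNA2, IFNB1, IFNW1, IFNG, IFNL2 and IFNL3. IFNE, an interferon made constitutively by epithelium, was the only one tested, at 0.193 to 0.574 CPM, and it passed no comparison with edgeR or DESeq2, though it had an unadjusted p under 0.05 in 2 of 11 and passed 1 with voom. Of 6 receptor genes, all tested, 2 fell with guide 2 against the empty vector, where 2.73% of all genes were called lower. IFNGR1 and IFNGR2 encode the chains of the interferon gamma receptor. IFNGR1 had 105, 109 and 97.9 CPM with the empty vector and 69.9, 59.1 and 79.7 CPM with guide 2, a log2 difference of -0.59 (SE 0.149, edgeR adjusted p 0.0457), and the groups did not overlap. IFNGR2 differed by -0.33 with guide 2 (SE 0.063, adjusted p 0.0138) and by -0.30 in the parental cells (adjusted p 0.0207). Without guide 2 replicate 2, IFNGR1 and IFNGR2 also fell with both guides and in the parental cells, and IFNGR2 with guide 1, so the fall was not seen with guide 2 alone. DESeq2 called IFNGR2 with guide 1 and IFNGR1 with both guides as well. The call of IFNGR1 with guide 2 was lost with a replicate block (adjusted p 0.0786), in the fit of the compared libraries alone (0.133) and without any 1 of 11 libraries, at adjusted p up to 0.116, and held without guide 1 replicate 2 or 3 or guide 2 replicate 2 or 3. The IFNGR2 call in the parental cells was lost without any 1 parental library or empty-vector replicate 1 or 3, at adjusted p up to 0.102. It was also lost with no filter on low counts (edgeR adjusted p 0.101). With guide 2, the IFNGR2 call was lost with no filter (0.0592) and in the fit of the compared libraries alone (0.211).

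Of 12 sensors and adaptors, 11 were tested and 1 passed with edgeR. MAVS, the adaptor of RNA sensors, was higher in the parental cells than with the empty vector (log2 difference 0.23, SE 0.056, edgeR adjusted p 0.0401), where 4.37% of all genes were called. DESeq2 called MAVS there too, with RIGI lower, and called CGAS lower with guide 1 against the empty vector and MAVS lower with both guides against the parental cells. Without guide 2 replicate 2, the edited against the unedited mean gave STING1 and TLR3 higher and CGAS, IKBKE and TRIM25 lower. In that fit 18.0% of all genes passed. Voom called 1 to 6 genes of this list in each comparison, where it called 15.2% to 52.9% of all genes. The MAVS call in the parental cells was lost with a replicate block (adjusted p 0.0635), in the fit of the compared libraries alone (0.0738), with no filter on low counts (0.235) and without any 1 of 13 libraries, at adjusted p up to 0.185, and held without guide 1 replicate 3 or guide 2 replicate 2. ZBP1 had no count in any library. Of 8 negative regulators, 7 were tested and none passed with edgeR over all 15 libraries. In each comparison 0 to 2 had an unadjusted p under 0.05 and voom called 1 to 4, with 15.2% to 52.9% of all genes. DESeq2 called 1, in the parental cells against the empty vector, with 8.56% of all genes. Without guide 2 replicate 2, edgeR called PTPN2 lower with guide 1 alone and with guide 2 alone. This held against the empty vector, where 18.1% and 14.5% of all genes passed, and against the parental cells, where 14.5% and 5.96% did. PTPN2 was also lower in that fit for edited against unedited. In that fit SOCS3 was higher with guide 2 and SAMHD1 higher in the parental cells, against the empty vector. SAMHD1 was lower with guide 1 than in the parental cells, and SOCS1 lower with both guides than with guide 1. TREX1 is listed at 0 in every library.

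Of 30 further interferon-induced genes that are not members, 27 were tested. Against the empty vector, 6 fell and none rose with guide 1: PARP12, PARP14, TRIM21, LAMP3, TAP1 and ISG20, where 4.57% of all genes were called lower. Without guide 2 replicate 2, 8 genes of the list fell with guide 1 and 4 rose (LGALS9, PARP10, SP100 and UBE2L6), where 18.1% of all genes passed. Voom called 9 lower and 9 higher, where it called 42.5% of all genes. In the reported fit, with guide 2 and with both guides, 2 fell, PARP14 and TAP1, and in the parental cells 4 fell, PARP14, TRIM21, LAMP3 and TAP1. In that order, 3.94%, 0.962% and 4.37% of all genes were called in either direction. PARP14, an ADP-ribosyltransferase, had 67.7, 71.3 and 79.6 CPM with the empty vector and 38.6 to 52.5 CPM in the other 12 libraries. Its log2 differences from the empty vector were -0.71 with guide 1, -0.87 with guide 2, -0.54 with both guides and -0.72 in the parental cells (edgeR adjusted p 0.00128, 0.000385, 0.0111 and 0.00131). TAP1, a subunit of the peptide transporter of antigen presentation, had 40.7, 42.2 and 49.4 CPM with the empty vector and 23.6 to 32.1 CPM elsewhere, with differences of -0.74, -0.61, -0.68 and -0.72. Both genes were therefore highest in the empty-vector libraries, which all 4 comparisons share. Without 1 library, PARP14 and TAP1 kept their calls with guide 1 and in the parental cells. The call of TAP1 with guide 2 was lost without empty-vector replicate 3 or guide 2 replicate 1 or 3. In the fit of the compared libraries alone it was lost too (edgeR adjusted p 0.136), as was the call of PARP14 with guide 2 (0.0505). With both guides, PARP14 lost its call without empty-vector replicate 3 or any 1 both-guide library, and TAP1 without these or empty-vector replicate 2. The other calls were less stable: with guide 1, PARP12, TRIM21 and LAMP3 were each lost without any 1 of 4 libraries and ISG20 without any 1 of 8, always including empty-vector replicate 3 and guide 1 replicates 1 and 2. In the parental cells, TRIM21 was lost without any 1 of 7 libraries and LAMP3 without any 1 of 4, always including empty-vector replicate 3 and parental replicates 2 and 3. With no filter on low counts TRIM21 was lost with guide 1 (edgeR adjusted p 0.123) and in the parental cells (0.161). Its parental call was also lost in the fit of the compared libraries alone (0.0656). Between the edited and unedited means, IFITM2, which blocks viral entry, rose by a log2 difference of 0.36 (SE 0.072, adjusted p 0.0296) and PARP14 fell, at -0.34 (SE 0.054, adjusted p 0.0103), in overlapping libraries. The call of IFITM2 was lost without any 1 of 10 libraries, at adjusted p up to 0.101, and held without parental replicate 1 or 2, empty-vector replicate 2, guide 1 replicate 3 or guide 2 replicate 2. Against the parental cells and between edited genotypes, no gene of this list passed with edgeR over all 15 libraries. In each comparison 2 to 4 had an unadjusted p under 0.05. DESeq2 called up to 3, for both guides against the parental cells, with 1.77% of all genes. Voom called up to 17, for guide 1 against the parental cells, with 52.9% of all genes. Without guide 2 replicate 2, guide 1 against the parental cells gave IFITM2, IFITM3, PARP10 and UBE2L6 higher, where 14.5% of all genes passed. Guide 2 gave IFITM2 higher, where 5.96% did, and both guides gave IFITM3 higher and PLSCR1 lower, where 2.62% did. Between edited genotypes no gene of the list passed in that fit.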

How the data were processed

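Poly(A) RNA of 15 MCF-10A libraries was sequenced after RNeasy purification and a KAPA mRNA HyperPrep library, per the labels' protocols. Trim Galore 0.6.0, STAR 2.7.8a and GRCh38 are named in the submitters' processing notes; the counting program, annotation and use of strand are not given in the sources used here. The authors deposited whole-number read counts per Ensembl gene, without pooling of replicates. The authors also deposited CPM, which equal CPM recomputed from the counts to within 4.91e-11 and add no separate measurement. Each column was matched to its library by name, and genotype and replicate number come from the labels.

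Of 60721 identifiers, 60357 were given a symbol and 58503 a position from GENCODE 29. Genes were filtered with filterByExpr by genotype, scaled by TMM, and tested with edgeR 4.0.16 (R 4.3.3) in 1 model over all 15 libraries with 10 residual degrees of freedom, two-sided, with Benjamini-Hochberg adjustment over 17457 genes. Log2 CPM used a prior count of 2. Floors of 3 counts cover counting error only. The members and lists were chosen with earlier results of these data known. Members are given in every library where they passed a comparison, where they are STAT2, IRF1, IRF7, IRF9, ISG15 or CXCL10, or where they are among the 3 with the highest mean CPM; CXCL10, with so few counts, is given by its range. Pathway genes are named where they passed. No replicate block was used. Alternatives were RLE scaling, no filter, a replicate block, DESeq2 1.42.0, only the compared groups, voom with sample quality weights (limma 3.58.1), and each library left out. The edgeR procedure was also run on simulated counts, with changes added to guide 1 only and no outlying library. That run therefore does not bear on the calls that depend on guide 2 replicate 2.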

Additional observations from a re-analysis of the deposited data

Results flagged for a closer look

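CMPK2 differed between edited genotypes that were compared with the same control. With the empty vector as control, the log2 difference was 1.67 with both guides and -0.14 with guide 1, and the direct test between both guides and guide 1 gave a log2 difference of 1.81 (edgeR adjusted p 0.0384). The difference between both guides and guide 2 was 1.20 (adjusted p 0.230).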

How the results depend on the processing

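Of the 5 calls among the members (IFIH1 and DTX3L with guide 1, DTX3L with guide 2, and CMPK2 with both guides against the empty vector and against guide 1), none changed direction under any alternative run. With RLE scaling or no filter on low counts, the same members were called in each comparison as reported. DESeq2 called 4 with guide 2 (reported, 1) and 2 in the parental cells (reported, 0) against the empty vector. It called 1 each for guide 1 and both guides against the parental cells and for both guides against guide 2, and 2 for edited against unedited (reported, 0 in each). Fits of the compared groups alone called 10 with guide 1, 0 with guide 2 and 8 with both guides against the empty vector, 1 for both guides against the parental cells and 6 for both guides against guide 1. Voom with sample quality weights gave 15, 13, 6 and 6 for guide 1, guide 2, both guides and the parental cells against the empty vector, and 16, 12 and 2 for the edited genotypes against the parental cells. It gave 7 for guide 1 against guide 2, 16 and 6 for both guides against guides 1 and 2, and 16 for edited against unedited. It gave guide 2 replicate 2 the lowest weight, 0.0518. The cause of these differences was not tested.

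Leaving out 1 library gave 0 to 9 members called with guide 1, 0 to 5 with guide 2, 0 to 4 with both guides and 0 to 3 in the parental cells, against the empty vector. It gave 0 to 5, 0 to 0 and 0 to 1 for guide 1, guide 2 and both guides against the parental cells, and 0 to 2 for guide 1 against guide 2. It gave 0 to 2 and 0 to 1 for both guides against guides 1 and 2, and 0 to 10 for edited against unedited. The highest count came without guide 2 replicate 2, except for guide 1 against guide 2, where it came without guide 1 replicate 3. Without guide 2 replicate 2, 18.1%, 14.5%, 6.7% and 13.9% of all genes passed against the empty vector, in the order given. Against the parental cells the shares were 14.5%, 5.96% and 2.62%. For both guides against guides 1 and 2 they were 4.55% and 1.83%, and for edited against unedited 18.0%. The share without guide 1 replicate 3 is not given here, so the 2 members called there stand without a background.

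With a replicate block, 1 member was called with guide 1 against the empty vector, DTX3L, and IFIH1 had an adjusted p of 0.0884 by edgeR. The labels share numbers 1 to 3 across genotypes, but same-numbered libraries did not deviate together: over 30 pairs the correlation averaged -0.05, ranged from -0.75 to 0.28 and exceeded 0.1 in 8, so the numbers were not taken as pairs. The block changed no other member's call. Among the other pathway genes it ended the calls of PARP12, LAMP3 and ISG20 with guide 1 (adjusted p 0.0578, 0.0541 and 0.0808), IFNGR1 with guide 2 (0.0786), TAP1 with both guides (0.0566), and MAVS, TRIM21 and LAMP3 in the parental cells (0.0635, 0.0534 and 0.0563). CMPK2, EPSTI1 and the 3 members that did not pass the filter rest on few counts.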
